A study of Mus musculus with 25 samples.

Results

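H3K27ac HiChIP joins proximity ligation with immunoprecipitation of acetylated histone H3 lysine 27, and lists pairs of 10 kb genome bins that lie near each other with the mark on at least 1 side. The bin pairs described here come from TKO cells and hold a gained peak. At least 1 bin carried a peak of the 24 h H3K27ac set and none of the 0 h set, and neither bin carried a 0 h peak alone. Of 109776 bin pairs in the 0 h and 24 h TKO lists together, 7279 met this rule, or 6.63%. The pairs were chosen by the presence of TKO H3K27ac peaks at 0 h and 24 h, as the authors mark them on each bin, so a higher 24 h signal at these bins is part of the choice and not a result.

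The TKO cells are labelled as V6.5 mouse embryonic stem (ES) cells in 2i medium, a culture with inhibitors of MEK and GSK3. They were taken without doxycycline (0 h) and after 24 h of doxycycline, with 3 libraries each. The labels do not spell out the alleles behind TKO, the promoter that responds to doxycycline, the number of clones or whether libraries of a group came from separate cultures. Both times share those alleles and the 2i medium, and doxycycline and its time in culture are the labelled difference. The other lists used here came from V6.5 ES cells in 2i without a TKO label (4 KLF4, 2 H3K27ac and 2 Hi-C libraries) and from reprogrammable mouse embryonic fibroblasts (MEFs) at passage 3 (2 H3K27ac and 2 Hi-C libraries). KLF4 lists from such MEFs after 3 and 6 days of doxycycline and ascorbic acid had 3 and 4 libraries, and the design text states an SSEA1 sort at day 6. The MEFs came from rtTA3-OKSM embryos, which carry doxycycline-inducible reprogramming factors, heterozygous for the cassette, rtTA3 and an Oct4-GFP reporter, at embryonic day 13.5.

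H3K27ac marks active promoters and enhancers, and a HiChIP contact is counted only if a fragment carrying it is captured. KLF4 is a zinc finger transcription factor of the pluripotency network that binds CACCC-type motifs at promoters and enhancers, and KLF2 and KLF5 share much of its binding in ES cells. Changes in H3K27ac HiChIP counts can come from the mark, the contact or both, and these were not told apart here.

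Promoters inside gained-peak bins are shown first, for 5 of the genes with 8 or more of these pairs at an ES KLF4 anchor. Each of the 5 has a RefSeq promoter that lies whole in the bin. Those of Tubb6, Slc23a1 and 4933408B17Rik, with 9 pairs each at an ES KLF4 anchor, are not shown. Each promoter shown runs 5′ to 3′ on the gene's strand from 250 bases before to 50 bases after the RefSeq start (GRCm38.p6, the coordinates of mm10). Capitals mark matches to CCACNCCC, a letter pattern of KLF and SP family sites, or to its reverse complement GGGNGTGG.
Gadd45g, chr13:51846425-51846724, plus strand: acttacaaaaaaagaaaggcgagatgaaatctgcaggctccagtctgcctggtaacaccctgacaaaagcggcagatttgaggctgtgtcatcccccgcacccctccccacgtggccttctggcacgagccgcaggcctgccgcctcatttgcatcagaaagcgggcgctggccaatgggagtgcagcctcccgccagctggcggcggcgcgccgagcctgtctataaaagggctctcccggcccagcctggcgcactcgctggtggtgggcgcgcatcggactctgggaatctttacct
Mettl7a1, chr15:100304567-100304866, plus strand: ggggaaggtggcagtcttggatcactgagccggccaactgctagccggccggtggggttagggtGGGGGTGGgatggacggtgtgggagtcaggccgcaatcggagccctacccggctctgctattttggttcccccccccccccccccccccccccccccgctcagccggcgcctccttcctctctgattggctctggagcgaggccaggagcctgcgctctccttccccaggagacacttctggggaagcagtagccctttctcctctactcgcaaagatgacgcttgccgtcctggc
Acy3, chr19:3986320-3986619, plus strand: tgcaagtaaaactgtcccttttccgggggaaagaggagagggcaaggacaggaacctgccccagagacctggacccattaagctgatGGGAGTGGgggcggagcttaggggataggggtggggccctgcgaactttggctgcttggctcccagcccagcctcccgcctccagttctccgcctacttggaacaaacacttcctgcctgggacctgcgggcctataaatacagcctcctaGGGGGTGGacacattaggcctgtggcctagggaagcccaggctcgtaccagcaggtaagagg
Coro7, chr16:4679671-4679970, minus strand: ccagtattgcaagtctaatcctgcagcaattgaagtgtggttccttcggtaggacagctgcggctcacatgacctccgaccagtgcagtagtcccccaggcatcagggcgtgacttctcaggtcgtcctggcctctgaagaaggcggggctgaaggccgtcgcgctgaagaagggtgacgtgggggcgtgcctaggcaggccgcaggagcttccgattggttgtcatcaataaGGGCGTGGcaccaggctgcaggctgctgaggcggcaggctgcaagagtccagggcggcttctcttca
Flywch2, chr17:23786032-23786331, minus strand: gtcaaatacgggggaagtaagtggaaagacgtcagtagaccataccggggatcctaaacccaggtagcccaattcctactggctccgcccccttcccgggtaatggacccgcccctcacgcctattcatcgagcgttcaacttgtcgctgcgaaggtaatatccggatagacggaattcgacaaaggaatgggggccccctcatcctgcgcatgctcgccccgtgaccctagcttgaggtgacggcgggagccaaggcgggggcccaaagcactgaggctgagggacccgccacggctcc
The pattern stood once in the windows of Mettl7a1 and Coro7 and at 2 places in that of Acy3. Those of Gadd45g and Flywch2 held no match in these letters. Of 338 RefSeq promoters inside gained-peak bins 19.5% held the pattern, against 17.6% of all 32851 promoters of the same length, 19.7% in TKO bins with no peak and 21.9% in bins with a peak at both times.

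The pairs fall into 3 kinds by the second bin. In 4427 pairs the gained peak faced a bin with a peak at both times, in 2609 it faced a bin with no peak, and in 243 both peaks were gained. Every pair of the 0 h list had a 0 h peak at an anchor and every pair of the 24 h list a 24 h peak (0 exceptions among 93248 and 84256 pairs). Pairs of the last 2 kinds therefore could appear only in the 24 h list, and their absence at 0 h says nothing about contact there. With those included, 668 pairs (9.18%) stood in the 0 h list alone, 2957 (40.6%) in both and 3654 (50.2%) in the 24 h list alone. Over all TKO pairs these shares were 23.2%, 61.7% and 15.1%.

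The 4427 pairs with a both-times peak at the other bin could be listed at either time. Of them, 668 (15.1%) stood in the 0 h list alone, 2957 (66.8%) in both and 802 (18.1%) in the 24 h list alone, or 1.20 at 24 h alone for each at 0 h alone. That ratio was 0.783 for pairs of a both-times peak with no peak, 0.434 for pairs with both-times peaks at both bins and 0.336 for a lost peak (0 h set only) facing a both-times peak. Of the 802, 73.7% had a 0 h pair within 1 bin at each anchor, near the 76.5% of other pairs of the 24 h list alone. Of the 4427 pairs 26.2% joined neighbouring bins, near the 26.7% of all pairs. The share was 44.4% where the gained peak faced no peak and 53.5% where both peaks were gained.

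**Figure D1:**
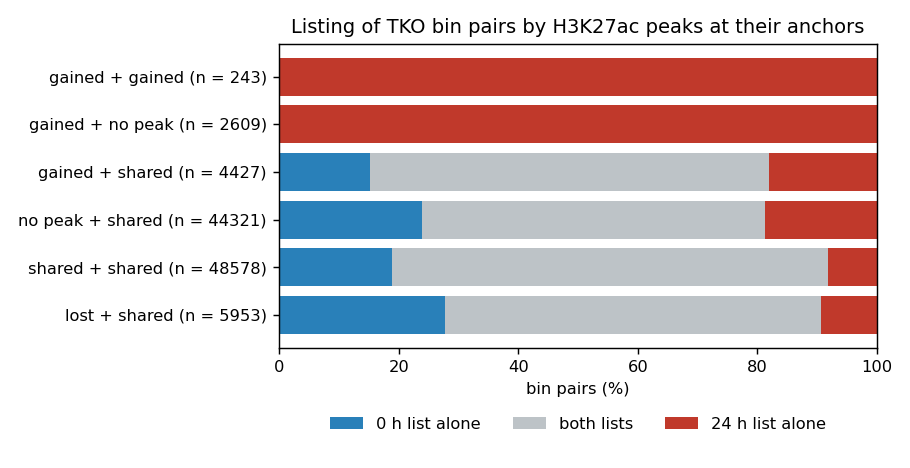
Percent of bin pairs (x axis) found in the 0 h list alone (blue), in both lists (grey) and in the 24 h list alone (red), for each combination of H3K27ac peaks at the 2 bins (y axis, with the number of pairs). The upper pair of rows is wholly red because the lists require a peak of their own time; among the rest, gained + shared has more red than blue.

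There were 2137 gained-peak bins, of which 2127 were anchors of these pairs, with a median of 3 pairs and at most 16. Of the 2127 bins, 1570 (73.8%) had more interactions of any kind in the 24 h list than in the 0 h list, 165 had fewer, and 582 had none at 0 h. Pairs of a gained peak with no peak or another gained peak could be listed only at 24 h. More interactions at 24 h therefore follow in part from the choice. Gained-peak bins had a median of 1 interaction at 0 h and 3 at 24 h, lost-peak bins 3 and 1, and bins with a peak at both times 4 and 4. The authors assign a gene to 10.7% of the gained-peak bins, against 30.04% of bins with a peak at both times, 18.3% of lost-peak bins and 9.03% of bins with no peak. By RefSeq, 74.6% of the gained-peak bins overlapped the body of a protein-coding gene, against 73.9% with a peak at both times and 66.3% with no peak.

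Gene names were attached to the gained-peak bin in 744 pairs (10.2%) and to the other bin in 1707 (23.5%). With both together 2226 pairs (30.6%) had a gene at either bin, against 43.0% of all TKO pairs. These pairs reached 2066 of the 12695 gene names in the TKO lists (16.3%), and 253 names stood at a gained-peak bin itself.

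Gadd45g, a growth arrest and DNA damage inducible gene whose product activates MAP3K4 signalling, had the largest difference in listing among the 12 genes with the most pairs at a gained-peak bin. Its bin, chr13:51840001-51850000, holds the whole gene (chr13:51846675-51848475) and the promoter printed above. The bin had 3 interactions in the 0 h list and 11 in the 24 h list. Of its 10 gained-peak pairs, 9 stood in the 24 h list alone, over 10 to 390 kb, at 3.87 to 7.82 CPM, the authors' contact count scaled to all contacts of the same chromosome. Of these 9, 4 joined it to another gained peak and 4 to a bin without a peak, so 8 could not be listed at 0 h. The remaining pair of the 9, to a both-times peak 120 kb away, had 25, 22 and 21 contacts in the 3 24 h libraries.

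The 1 Gadd45g pair in both lists reached a both-times peak 60 kb away at chr13:51900001-51910000. Its 0 h libraries gave 8.03, 7.53 and 7.74 CPM, and its 24 h libraries 6.33, 10.01 and 10.4 CPM. The 24 h values lay on both sides of the 0 h values, and the log2 change of 0.33 ± 0.20 (SE) had an adjusted p of 0.507 in edgeR, here always its quasi-likelihood test, with adjustment by Benjamini and Hochberg over all pairs tested. Of the 9 pairs in the 24 h list alone, 2 were in the ES H3K27ac list and 4 in that of MEFs.

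Other genes at gained-peak bins with many pairs showed less movement between lists. Their 24 h counts can include pairs that could not be listed at 0 h, so they do not measure a change in contact. The bin of Mettl7a1, a methyltransferase-like gene, had 10 pairs and 10 interactions at each time. The bin of Tubb6, a beta tubulin, went from 4 to 9 interactions, that of Coro7, a coronin, from 3 to 8, and that of Arhgef3 from 3 to 8. The bins of Gm11192 and Gm27198 went from 4 to 8 each. Slc23a1, a vitamin C transporter, had 5 and 6 interactions, Flywch2 6 and 8, Ptprcap and Acy3 4 and 6 each, and 4933408B17Rik 7 and 8. Of these 12 bins, Gm27198 was the one that was not an ES KLF4 anchor.

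The gained-peak bin with the most pairs had no gene assigned and lay inside Pibf1, a centrosomal protein gene, at chr14:99200001-99210000. This bin and the next were chosen after their values were seen. It had 3 interactions at 0 h and 16 at 24 h, all 16 of them gained-peak pairs, and 88.7 kb separate it from Klf5. A second gained-peak bin inside Pibf1, at chr14:99230001-99240000, went from 5 to 13. Of the 13 pairs of the first bin in the 24 h list alone, 7 reached a both-times peak and could have been listed at 0 h, at 3.19 to 4.84 CPM where the lists begin at 3. Of these 7, 1 ended in a bin inside Klf5 at chr14:99300001-99310000, with 11, 14 and 18 contacts in the 24 h libraries. The 3 pairs in both lists had log2 changes of 0.31 ± 0.20, 0.39 ± 0.26 and 0.15 ± 0.26 (SE), with unadjusted p from 0.12 to 0.608 in edgeR. None of the 16 pairs was in the ES H3K27ac list, and neither bin was an ES KLF4 anchor.

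Bins inside Pcx, the pyruvate carboxylase gene, and at Cldn5, a tight junction claudin, went from 1 to 13 and from 6 to 13 interactions. Bins inside Nt5c2, a cytosolic nucleotidase, and Rbfox2, a splicing factor, went from 5 to 13 and from 7 to 13. Bins inside Nsd1, a histone H3 lysine 36 methyltransferase, and Pawr went from 10 to 13 and stayed at 11. All 6 of these bins were ES KLF4 anchors. Their 24 h counts too can include pairs that could not be listed at 0 h.

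Pluripotency genes were reached by these pairs but held no gained peak themselves. The gene lists used here were drawn up with earlier results of these data known. Of 31 annotated pluripotency genes, 8 stood at the other bin (25.8%, against 16.3% of all gene names): Tdgf1, Dppa5a, Klf2, Klf4, Pou5f1, Sall4, Utf1 and Zfp42. Genes at bins with more interactions can be reached more often, and these shares were not adjusted for that. Of 15 annotated MAPK and immediate early genes 5 were reached, of 18 p53 targets 5, of 13 stress genes 2, and of 19 signalling genes 3. Primed and lineage genes were reached in 2 of 13 cases, trophoblast genes in 2 of 8, other KLF and SP genes in 1 of 15 (Klf9), and germline and 2-cell genes in 0 of 2. At a gained-peak bin itself stood Fosb, an immediate early AP-1 subunit, and Gadd45g.

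Pairs of these lists that stood in both TKO lists numbered 26. Of these 18 had a log2 change above 0, the median was 0.12, and the range was -0.46 to 0.62. None of the 26 passed an adjusted p of 0.05 in edgeR, where 2.62% of all tested pairs did, and DESeq2 gave none of them an adjusted p. In edgeR 4 of the 26 had an unadjusted p under 0.05, where 13.6% of all tested pairs did. They were those of Klf4, Etv4 and Nes (with Crabp2) with a log2 change above 0 and that of Pmaip1 with -0.46. The Klf4 bin and the gained peak next to it gave 7.42, 7.41 and 7.28 CPM at 0 h and 9.91, 8.61 and 9.35 CPM at 24 h. The 24 h values were all above the 0 h values, with a log2 change of 0.41 ± 0.18 (SE) and an adjusted p of 0.263 in edgeR. Against this single pair, the whole Klf4 bin had 6 interactions in the 0 h list and 3 in the 24 h list.

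For Zfp42, a naive pluripotency marker, the 0 h libraries gave 9.22, 11.7 and 11.4 CPM and the 24 h libraries 11.5, 11.9 and 11.9 CPM over 20 kb. For Pou5f1, the gene of OCT4, they gave 7.04, 4.05 and 9.62 CPM and 7.85, 7.12 and 7.27 CPM over 60 kb. The groups overlapped in both. Tdgf1, a Nodal co-receptor, had 3 such pairs to a run of gained peaks 30 to 50 kb away. Those in both lists had log2 changes of -0.19 ± 0.23 and -0.36 ± 0.19 (SE), and the remaining pair was in the 0 h list alone. The Krt18 bin, a simple epithelial keratin gene, held no peak and joined a gained peak 10 kb away in the 24 h list alone, with 27, 45 and 31 contacts.

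KLF4 contacts in ES cells without the TKO label were read as the anchors of the ES KLF4 HiChIP list. Both bins of a listed pair count as anchors, though KLF4 may lie on only 1 side. The shares below therefore describe anchors and not KLF4 binding of each bin. Of the 7279 pairs, 37.5% had no such anchor, 31.2% had 1 and 31.3% had 2, against 23.9%, 32.8% and 43.2% of all TKO pairs. This pools 54.0% with none where the gained peak faced no peak with 26.99% where it faced a both-times peak. Pairs of a both-times peak with no peak had none in 30.2% and 2 in 34.4%. Among pairs of the 24 h list alone 49.5% had none, against 32.2% of other pairs of the 24 h list alone. The gap was smaller at like distance. The shares were 62.0% and 55.9% at 10 kb, 56.7% and 46.0% at 20 kb, 35.2% and 26.5% at 30 to 50 kb, and 18.8% and 13.0% beyond. Counted by bin, 29.5% of gained-peak bins were ES KLF4 anchors, beside 30.8% of bins with no peak, 44.2% of lost-peak bins and 51.1% of bins with a peak at both times. In the 4427 pairs that faced a both-times peak, the KLF4 anchor was the gained bin alone in 8.18%, the other bin alone in 28.1%, both in 36.8% and neither in 26.99%. Where gained-peak pairs had KLF4 anchors, these were thus more often the both-times bin than the gained bin.

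In the other lists too, gained-peak bins lay closer to bins without a peak than to bins with a peak at both times, except for MEF H3K27ac where all 3 were near each other. They were anchors in the day 3 KLF4 list in 24.9% of cases (no peak 25.04%, both times 34.4%) and in the ES H3K27ac list in 59.0% (no peak 55.8%, both times 82.1%). For the MEF H3K27ac list the share was 44.8% (no peak 41.3%, both times 47.0%). Of gained-peak bins 13.6% were H3K27ac anchors in MEFs but not in ES cells, beside 13.97% with no peak, 8.40% with a lost peak and 4.42% with a peak at both times.

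**Figure D2:**
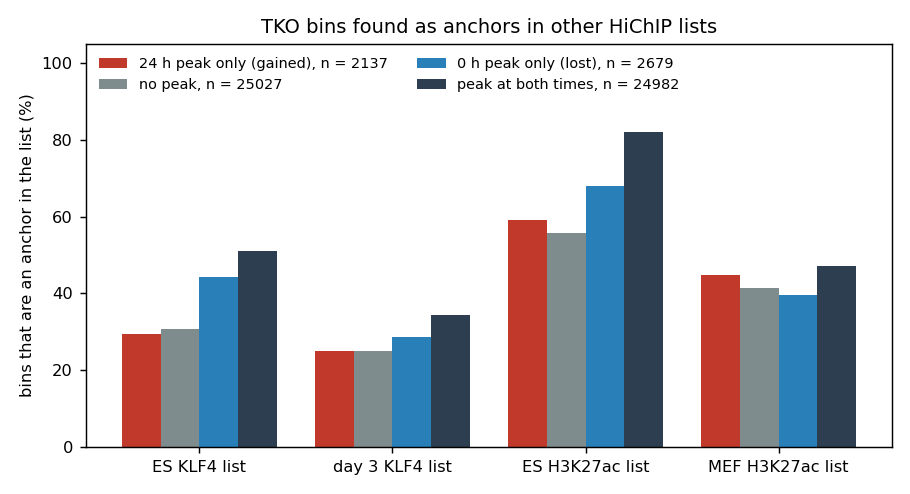
Percent of TKO bins (y axis) that were anchors in each of 4 other interaction lists (x axis), by the H3K27ac peaks of the bin in TKO cells. Gained-peak bins (red) stand beside bins with no peak (grey) in every list, and below bins with a peak at both times (dark) by most in the ES KLF4 and ES H3K27ac lists.

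Contact counts of the 2957 pairs in both lists were compared between 24 h and 0 h. The rule used peaks of the same cells and times, so the values describe the pairs and nothing is read from the number that passed. The median log2 change was 0.10 (middle 50% of pairs from -0.06 to 0.27), and 66.8% of the pairs lay above 0. Over all 67728 pairs in both lists the median was 0.01 and 51.1% lay above 0. Pairs of a both-times peak with no peak had a median of 0.05, pairs of both-times peaks -0.03 and pairs with a lost peak -0.05. These values use edgeR's trimmed mean scaling (TMM); with contact totals alone the members' median was -0.00 and that of all pairs -0.10, so the direction of the members' median depended on the scaling and its distance from all pairs did not. By number of ES KLF4 anchors the members' median was 0.11 with none, 0.11 with 1 and 0.09 with 2. Over all tested pairs it was 0.04, 0.03 and -0.02, and over pairs of both-times peaks 0.01, -0.01 and -0.05.

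**Figure D3:**
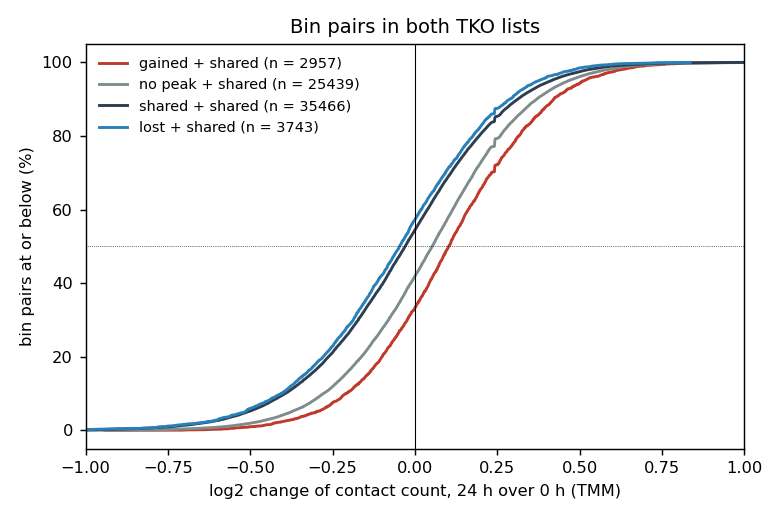
Cumulative percent of bin pairs (y axis) against the fitted log2 change of contact count from 0 h to 24 h (x axis), for pairs in both TKO lists by their H3K27ac peaks. The curve of gained + shared pairs (red) lies farthest right, with its median at 0.10; the small step common to all curves comes from pairs with equal summed counts at both times.

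In edgeR 24 of the 2957 passed an adjusted p of 0.05 (0.812%), 21 higher and 3 lower at 24 h, where 2.62% of all tested pairs passed (0.576% higher and 2.04% lower). DESeq2 gave an adjusted p for 67 of the 2957 and called 0 of these, where it called 2.23% of the 4700 pairs with an adjusted p overall. In edgeR 362 of the 2957 (12.2%) had an unadjusted p under 0.05, where 13.6% of all tested pairs did. With contact totals alone 25 passed, 9 higher and 16 lower, where 4.17% of all pairs passed (0.229% higher and 3.94% lower). Leaving out 1 library at a time gave 11 to 21 calls, beside 1028 to 1205 over all pairs, and 4 of the 24 passed without any single library. In 187 pairs (6.32%) all 24 h libraries lay above all 0 h libraries in CPM, and in 230 (7.78%) below, against 3.90% and 17.2% of all pairs in both lists.

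The 4 pairs were those at Igdcc4, Pofut2, Ctsd and inside Cars. Igdcc4, an immunoglobulin superfamily receptor gene related to DCC, and the gained peak 10 kb from it gave 8.33, 10.5 and 7.94 CPM at 0 h and 11.7, 14.9 and 19.5 CPM at 24 h. All 24 h libraries lay above the 0 h libraries, with a log2 change of 0.92 ± 0.16 (SE) and an adjusted p of 1.24e-05 in edgeR. In the gained-peak bin of Pofut2, a protein O-fucosyltransferase, a contact to a both-times peak 60 kb away gave 5.08, 4.12 and 5.75 CPM at 0 h and 8.55, 9.41 and 9.50 CPM at 24 h, a log2 change of 0.97 ± 0.21 (SE). Ctsd, a lysosomal protease, met a gained peak 20 kb away at 5.95, 7.86 and 6.16 CPM and at 11.7, 10.2 and 9.43 CPM, a log2 change of 0.79 ± 0.19 (SE).

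The largest fitted rise was at Gm27198, joined to a both-times peak inside Abcc4, a multidrug resistance transporter, 40 kb away. Its libraries gave 4.82, 3.76 and 5.41 CPM at 0 h and 9.09, 7.24 and 10.2 CPM at 24 h, a log2 change of 1.00 ± 0.23 (SE), with an adjusted p of 0.00315 in edgeR, called in 5 of the 6 fits that left out a library. Irf2bp2, a transcriptional corepressor gene, and a gained peak 70 kb away rose by 0.81 ± 0.22 (SE) on the log2 scale. Rad9a and the contact of Flywch2 with Prss33 had fitted changes of 0.82 and 0.81 and adjusted p of 0.222 and 0.123, from 7 to 22 contacts a library. The largest fall was at Gm20621 and the Creld2 bin, from 8.55, 9.30 and 7.79 CPM to 4.24, 3.79 and 4.45 CPM, a log2 change of -0.94 ± 0.25 (SE). Gsr, the glutathione reductase gene, and Nedd4l, a ubiquitin ligase gene, had changes of -0.70 ± 0.23 and -0.66 ± 0.26 (SE) with adjusted p of 0.0789 and 0.228.

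**Figure D4:**
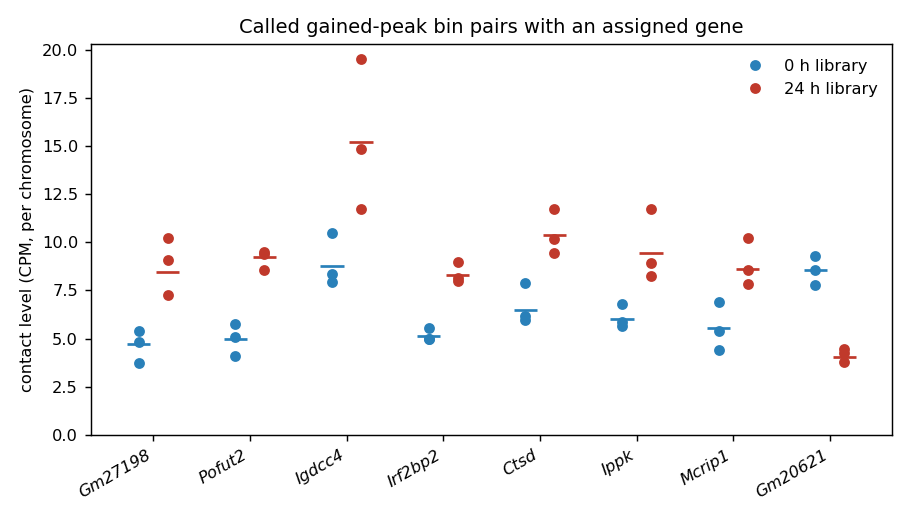
Contact level in CPM, scaled to the contacts of the chromosome (y axis, from 0), in each 0 h library (blue) and 24 h library (red) for the 8 called pairs in which the authors assign a gene to a bin (x axis), with bars at the group means. In 7 pairs the red points lie above the blue points, and at Gm20621 below.

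The 8 pairs of the 24 h list alone with the highest CPM lay at 1 place, the start of chromosome 11 inside Sfi1, a centrosomal protein gene. There 23 gained-peak pairs, 19 of them in the 24 h list alone, gave 3.50 to 138 CPM at 24 h. The top pair, chr11:3140001-3150000 with the next bin, gave 141, 135 and 139 CPM in the 24 h libraries, and could not be listed at 0 h because neither bin held a 0 h peak. The same pair was in the ES H3K27ac list at 101 ± 0.824 CPM (SD, n = 2) and in the ES KLF4 list at 116 ± 7.92 CPM (SD, n = 2 after joining libraries alike within sampling noise). A pair there that was also in the MEF list stood at 54.1 ± 3.86 CPM in ES cells and 45.7 ± 6.25 CPM in MEFs (SD, n = 2 each). High contact at this place was thus also present in cells without doxycycline.

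CPM is scaled per chromosome, so a given count is a higher CPM on a small chromosome, and the pairs named next by CPM are not ordered by contact count. Elsewhere the pairs of the 24 h list alone with the highest CPM lay inside Tnks2, a tankyrase gene (26.8 ± 1.57 CPM), at Arl3 (25.8 ± 0.200 CPM), inside Nt5c2 (23.5 ± 3.67 CPM), inside Carnmt1 (22.9 ± 1.88 CPM), at Psat1 (21.6 ± 2.57 CPM) and inside Huwe1, a ubiquitin ligase gene (21.2 ± 0.410 CPM; SD, n = 2 after joining). Of these 6 places all but Huwe1, on the X chromosome, lie on chromosome 19. The pairs of the 0 h list alone with the highest CPM lay inside Atrnl1 (14.9 ± 3.72 CPM; 52, 29 and 26 contacts), at Cfap43 and Cfap58 (10.7 ± 2.52 CPM), at Snrpc (10.2 ± 1.65 CPM), at chr11:60970001-60980000 with the next bin (10.2 ± 0.480 CPM; 64, 49 and 54 contacts) and at Riok2 (10.05 ± 2.19 CPM). In the ES KLF4 list, beyond Sfi1, the pairs with the highest CPM, all on chromosome 19, were at Erlin1 (20.6 ± 1.73 CPM), Exosc1 (18.9 ± 2.40 CPM), Nt5c2 (18.3 ± 3.74 CPM) and Kif11 (16.2 ± 1.87 CPM).

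The ES and MEF H3K27ac libraries were not used by the rule, so the difference between these cells was tested for each pair in both of those lists. Of 836 gained-peak pairs tested 219 passed an adjusted p of 0.05 in edgeR (26.2%), 61 higher and 158 lower in ES cells, where 32% of all 17901 tested pairs passed (17.6% higher and 14.4% lower). Of the calls 72.1% were lower in ES cells, against 44.9% of calls over all pairs. The median log2 difference of ES over MEF was -0.19, beside -0.04 over all pairs. With contact totals alone 213 passed, 119 higher and 94 lower, where 35% of all pairs passed (27% higher and 7.97% lower), with medians of 0.06 and 0.21 over members and all pairs, so the side of 0 depended on the scaling while the members' median stayed below that of all pairs. DESeq2 called 74 of the 718 that it gave an adjusted p and 2396 over all pairs. How many of all pairs it gave an adjusted p is not given here, so these shares are not compared. Leaving out 1 library gave 112 (without MEF replicate 2) to 188 member calls and 3333 to 4849 over all pairs.

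Pairs of a both-times peak with no peak lay about as low. Gained peaks facing both-times peaks had a median of -0.16 and 63.6% of 162 calls lower in ES cells. Both-times peaks facing no peak had -0.18 and 75.4% of 1382 calls, a lost peak facing a both-times peak had -0.03 and 53.2% of 216 calls, and pairs with both-times peaks at both bins had 0.27 and 20.5% of 3323 calls. By listing, 65 of 67 called gained-peak pairs of the 24 h list alone were lower in ES cells. So were 184 of 188 called pairs of the 24 h list alone and 246 of 251 of the 0 h list alone among all TKO pairs. For pairs of 1 TKO list alone, the direction of the calls was thus not particular to gained peaks. Among pairs in both TKO lists it differed from that of all pairs. There 88 of 147 called gained-peak pairs were lower in ES cells (59.9%), with a median of -0.12 over the tested pairs. Over all TKO pairs in both lists 34.8% of 4811 calls were lower, with a median of 0.08. Those 4811 calls pool all kinds of pair, including both-times peaks at both bins, and were not split by kind. The difference is therefore not shown to be particular to gained peaks.

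**Figure D5:**
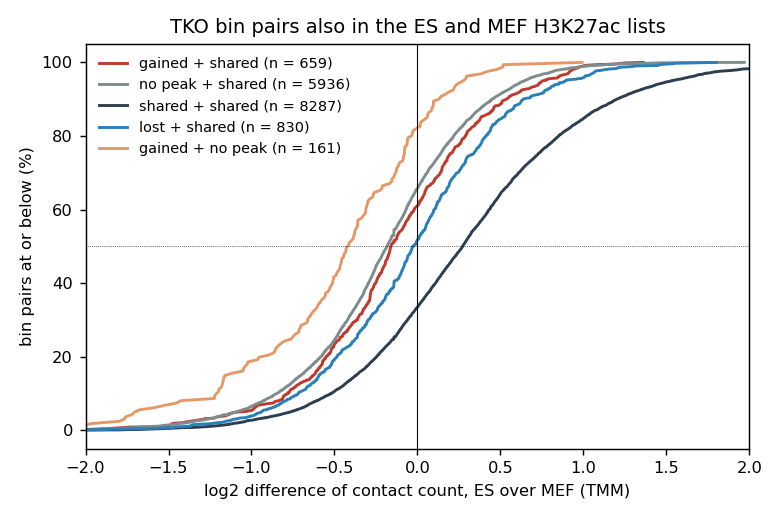
Cumulative percent of TKO bin pairs (y axis) against the fitted log2 difference of contact count, ES over MEF (x axis), by H3K27ac peaks in TKO cells, for pairs in both the ES and MEF H3K27ac lists. Gained + shared pairs (red, median -0.16) run close to no peak + shared pairs (grey, median -0.18) and left of shared + shared pairs (dark, median 0.27).

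The 5 called pairs farthest below 0 lay at Pdlim1, Krt18, Ecm1, Myoz3 and Msn. Inside Pdlim1, which encodes a PDZ and LIM protein on actin stress fibres, a pair over 10 kb gave 40.4 and 61.2 CPM in the MEF libraries and 9.89 and 10.4 CPM in the ES libraries. The log2 difference was -2.52 ± 0.18 (SE), with an adjusted p of 2.17e-16 in edgeR. At the gained peak next to Krt18, a pair over 30 kb gave 18.8 and 18.7 CPM in MEFs and 5.21 and 4.29 CPM in ES cells (-2.24 ± 0.20). Ecm1, an extracellular matrix gene, gave 13.8 and 15.5 CPM against 4.62 and 5.24 CPM (-2.02 ± 0.18). Myoz3 with the body of Synpo, both genes of actin-linked proteins, had -1.96 ± 0.23, and Msn, the moesin gene that links actin to the membrane, -1.94 ± 0.27.

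The pairs higher in ES cells were led by one inside Arhgef3, at 3.86 and 7.08 CPM in MEFs and 19.0 and 17.9 CPM in ES cells (1.36 ± 0.22, SE, adjusted p of 1.36e-06 in edgeR). Carnmt1 with D030056L22Rik had 1.25 ± 0.23 and Pbx4, a TALE homeobox gene, 1.22 ± 0.21. Pim3, a serine/threonine kinase gene, had 1.20 ± 0.24 and a pair inside Arhgef18 1.08 ± 0.24. All 10 named pairs passed in each fit that left out 1 library, with contact totals alone and in DESeq2. Of these 10, the pairs at Krt18, Ecm1 and Myoz3 were in the 24 h list alone and the other 7 in both TKO lists.

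Presence in other lists differed between kinds of pair. The same 2 bins were listed in ES H3K27ac for 37.4% of the gained-peak pairs (95% Wilson interval 36.2% to 38.5%), against 57.4% of all TKO pairs. This pools 52.0% of gained peaks facing a both-times peak with 14.6% of those facing no peak, and both-times peaks facing no peak gave 47.7%. For MEF H3K27ac the shares were 22.9% (22.0% to 23.9%) and 20.1%, for ES KLF4 11.4% (10.7% to 12.1%) and 17.8%, for day 3 KLF4 9.85% and 11.6%, and for day 6 KLF4 2.198% and 2.29%. Pairs share bins, so these intervals cover counting error only. Among pairs of the 24 h list alone, 23.3% of gained-peak pairs were in the MEF and 17.7% in the ES H3K27ac list, while other pairs of that list gave 12.6% and 29.7%. These groups hold unlike kinds of pair, as 2609 of the 3654 gained-peak pairs faced a bin with no peak. Whatever their listing, gained peaks facing no peak gave 25.5% (MEF) and 14.6% (ES). Those facing a both-times peak gave 21.1% and 52.0%, near the 20.6% and 47.7% of both-times peaks facing no peak.

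Hi-C, which needs no histone mark, listed 58.0% of the gained-peak pairs in ES cells and 44.4% in MEFs, against 48.4% and 34.7% of all TKO pairs. This too pools unlike kinds of pair. Gained peaks facing a both-times peak gave 53.2% and 37.9%, near the 50.7% and 38.0% of both-times peaks facing no peak. For the 2609 pairs of a gained peak with no peak, which the TKO lists could hold only at 24 h, the Hi-C shares were 65.2% (63.3% to 67.0%) in ES cells and 54.8% (52.9% to 56.7%) in MEFs. At 10 kb 60.2% of gained-peak pairs and 49.3% of all pairs were in the ES Hi-C list, at 20 kb 61.6% and 52.98%, at 30 to 50 kb 56.9% and 50.2%, and beyond that 47.5% and 39.0%. None of the 7 other lists held 18.5% of the gained-peak pairs, against 18.1% of all pairs.

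The TKO libraries held 68.3 M to 110 M contacts by the authors' per-chromosome totals, and a median of 22 to 35 contacts per listed pair, which limits single pairs. Replicates 2 and 3 at 0 h, and 1 and 3 at 24 h, could not be told from sampling noise (chi-square test, p = 0.0696 and 0.197) and each couple was counted as 1 sample, so p-values rest on 2 samples a group and measure the spread between these libraries, which may be technical. ES cell marker genes fitted the labelled cell type: 6 annotated markers, among them Pou5f1 and Nanog, had 11 to 22 interactions at 0 h and 9 to 19 at 24 h, and 4 fibroblast markers had 1 to 3 and 0 to 2. In simulated counts a 2-fold change was called in 73.5% of changed pairs for 24 h against 0 h over 67728 pairs, and in 64.5% for ES against MEF over 17901 pairs.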

How the data were processed

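HiChIP and Hi-C interaction lists at 10 kb were used as deposited. Per the submitters' processing notes reads were mapped to mm10 with Bowtie2 2.2.3; the contact caller, duplicate handling and the test behind the listed p-values are not given in the sources used here. Per the file headers the authors give raw contact counts, CPM values, a ratio to the contacts at the same distance (not used), p-values and FDR values for each pair. The deposited CPM equals the count scaled to the contacts of its chromosome, and for Hi-C the authors' scaled signal was not used. HiChIP lists begin near a mean of 3 CPM and at p-values under 0.1, so absence means below these limits or without a peak of the list's own time.

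Bins were classed by the authors' 0 h and 24 h H3K27ac marks and genes by the authors' assignment, with bodies, promoters and starts from RefSeq. Contact counts of pairs present in both lists were tested with edgeR 4.0.16 (quasi-likelihood, TMM on contact totals, filterByExpr, Benjamini-Hochberg over all tested pairs, adjusted p under 0.05) in R 4.3.3, separately for 24 h against 0 h and ES against MEF, and checked on simulated data. DESeq2 1.42.0, contact totals without TMM, no filter, distances of at least 20 kb, single libraries left out, a replicate block, separate libraries, 1 bin of tolerance and other membership rules were the alternatives. Libraries were joined where a chi-square test over pairs with a pooled level of at least 6 CPM found no difference while another couple of the group differed. The members and gene lists were chosen with earlier results of these data known. Named were the 12 genes at gained-peak bins with most pairs, listed genes, the 8 largest changes each way, the 8 and 5 highest pairs of the 24 h and 0 h lists alone, the 8 highest in ES KLF4 and the 5 largest ES against MEF calls each way; bins with most pairs were added after their values were seen.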

Additional observations from a re-analysis of the deposited data

How the results depend on the processing

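With contact totals in place of TMM the members' median log2 changes turned to -0.0027 for 24 h against 0 h and 0.0559 for ES against MEF, because all pairs shifted by about as much; the members' median less that of all tested pairs, 0.10 and -0.16 as reported, was not moved beyond its spread by any alternative run and was 0.09 to 0.11 and -0.19 to -0.14 with single libraries left out. Member calls for 24 h against 0 h fell from 24 to 0 in DESeq2 (67 members with an adjusted p), to 12 at 20 kb or more (fewer pairs tested) and to between 11 and 21 with single libraries left out (11 without 0 h replicate 1, 13 without 0 h replicate 2 or without 24 h replicate 2), and ES against MEF calls from 219 to 74 in DESeq2, 126 at 20 kb or more and 112 (without MEF replicate 2) to 188. The medians with single libraries left out were 0.09 to 0.12 and -0.22 to -0.18. Replicate numbers did not pair the libraries (correlations of deviations between 24 h and 0 h libraries from -0.01 to 0.01, and 0.03 or -0.03 for ES and MEF); the replicate block gave 33 and 229 member calls, of which 23 and 219 were among the 24 and 219. Of the 24 calls 12 were shared with the contact totals, and of the 219 calls 155.

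The share of members in the 24 h list alone, 50.2%, became 45.8% at 20 kb or more, 23.9% when each anchor could lie 1 bin away, and 22.4% over pairs with gained peaks at both bins or a both-times peak at the other; the share in both lists, 40.6%, became 42.0%, 74.2% and 63.3%. Members with an ES KLF4 anchor, 62.5%, became 69.1% at 20 kb or more and 70.8% within 1 bin, and with both anchors, 31.3%, became 34.2% and 54.8%. With 1 bin of tolerance the shares in other lists rose to 65.8% (ES H3K27ac), 49.4% (MEF H3K27ac), 37.1% (ES KLF4), 28.6% (day 3), 9.37% (day 6), 87.5% (ES Hi-C) and 77.7% (MEF Hi-C); at 20 kb or more they were 38.8% (ES H3K27ac), 21.0% (MEF H3K27ac), 1.78% (day 6) and 40.5% (MEF Hi-C). The wider window admits more pairs by construction; the cause of the other moves was not tested. Depth limits single pairs, at a median of 22 to 35 contacts a TKO library.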
